A study of Mus musculus with 6 samples.

Results

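Laminins, integrins and the other proteins that tie cells to the basement membrane were followed at the RNA level, by sequencing, in pancreatic islets isolated from mice. The genes were chosen by name: laminin chains, integrin alpha and beta chains, nidogens, perlecan (Hspg2), agrin, dystroglycan, Bcam and 6 proteins of the adhesion complex inside the cell. That gave 46 of the 48321 gene names in the deposited table, 11 of them laminin chains, 16 integrin alpha chains and 7 integrin beta chains. Itgam, Itgax and Itgb2, which mark leukocytes, were left out. The islets came from wild-type C57BL6 mice. The HFD group (3 samples) ate a high-fat diet with 60% of its calories from fat for 4 months, begun at 3 months of age, and the NC group (3 samples) ate normal chow. The labels give no age, feeding time or sex for the chow mice, and do not say whether a sample was 1 animal or a pool. Nothing in the labels says that samples of a diet came from separate animals, so each p-value rests on a spread between samples that could be technical only.

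A basement membrane is a thin sheet of matrix laid down under epithelia and around vessels. Its laminins are trimers of an alpha, a beta and a gamma chain, secreted only once assembled, and linked by nidogens and perlecan to collagen IV. Cells hold on to it through integrins, each a pair of an alpha and a beta chain, and through dystroglycan, and integrins pass force and signals to talin, vinculin, paxillin and focal adhesion kinase. In the mouse islet much of the basement membrane belongs to the capillaries, and beta cells touch it through laminin-binding integrins.

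Values are CPM, which are meant to scale the reads of a gene to a fixed library size. The columns used did not sum to a fixed size. Their sums were 963615, 832416 and 879301 CPM in high-fat replicates 1, 2 and 3, and 841705 and 674482 CPM in chow replicates 1 and 3. Levels below are not evened for these sums. Alternative fits with library sizes that omit some genes also even them out, and the part of each step was not tested. Chow replicate 2 was the exact mean of chow replicates 1 and 3 in all 48321 names and was not counted, which left 3 high-fat and 2 chow libraries of 18.8 to 35.1 M implied reads. A level below 0.0856 to 0.16 CPM, depending on the library, is under 3 reads, which covers counting error only. The islet hormone gene Ins2 had 41203 to 45461 CPM in high-fat islets and 28777 and 41053 CPM in chow islets. The summed level of 20 acinar markers, from the enzyme-secreting cells around the islets, ran from 11463 to 98194 CPM in the high-fat libraries and was 173537 and 55487 CPM in the chow libraries. The non-polyadenylated RNA Rn7sk had 3192 to 3935 CPM in high-fat islets and 6.27 and 13.3 CPM in chow islets. Such RNAs, like the prefix of the sample names, changed with the diet, and for every gene below the library and the diet cannot be told apart.

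Lamc1, the gamma chain found in most laminin trimers, and Itgav, the integrin alpha chain that binds RGD motifs in matrix proteins, were higher in high-fat islets, while 8 other members were lower. They included the laminin chains Lama4, Lama5, Lamb2 and Lamc3, the proteoglycan Agrn and the integrin alpha chains Itga1 and Itga4. Of the 46 genes, 41 averaged 0.5 CPM or more across the 5 libraries and were tested with limma on log2(CPM + 1), with p-values adjusted over 16939 genes by the Benjamini-Hochberg method and a threshold of 0.05. The 10 past the threshold were 24.4% of the 41, against 23.7% of all genes tested, so the share of members that changed was near that of any gene. By direction, 2 of 41 (4.88%) were higher, against 14.9% of all genes, and 8 of 41 (19.5%) were lower, against 8.78%. The median log2 fold change was -0.23 over the 41 members and 0.05 over all genes tested. With no filter on low values, 39352 genes were tested and 2 members, Lamc1 and Itga4, were past the threshold. High-fat and chow libraries lay apart in 28 of the 41 members (68.3%), against 55.4% of all genes tested.

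**Figure D1:**
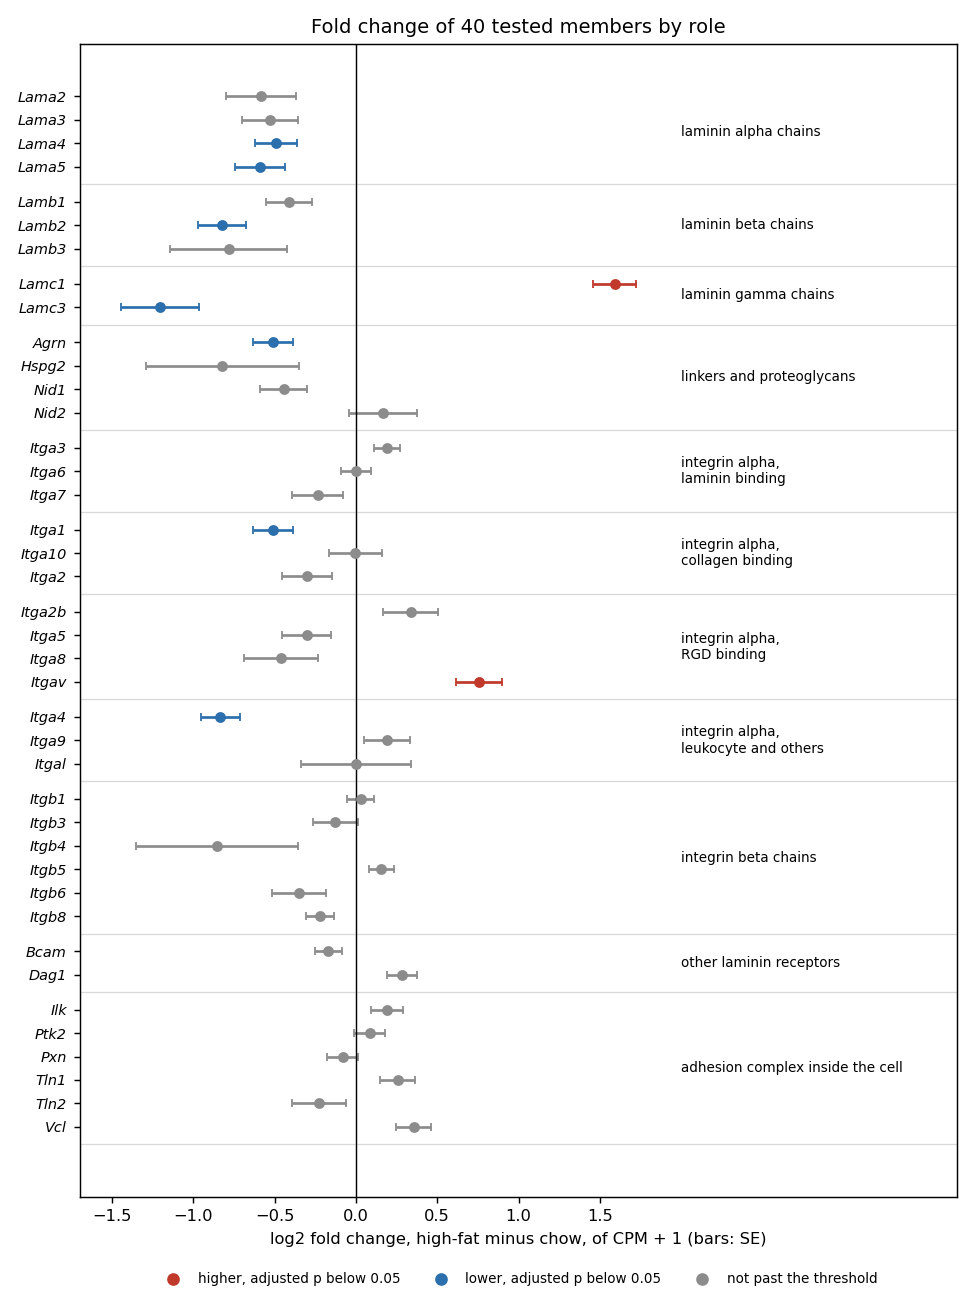
Log2 fold change of CPM + 1 (horizontal axis, high-fat minus chow) of 40 tested members, 1 point per gene in rows grouped by role, with bars for the standard error and colours for the 2 higher and 7 lower genes drawn past the threshold. The laminin chains drawn lie left of 0 apart from Lamc1 at 1.59, and the adhesion complex genes lie within -0.23 and 0.36.

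Among the laminins, Lamc1 was alone in rising. It had 131, 151 and 121 CPM in high-fat replicates 1, 2 and 3, against 38.9 and 49.1 CPM in chow replicates 1 and 3. The lowest high-fat library lay far above the higher chow library. The log2 fold change was 1.59 ± 0.13 (SE, limma adjusted p = 0.000466). Lamc1 was past the threshold in each of the 16 alternative fits, with log2 fold changes between 1.21 and 1.76. Here and below, 1 of the 16 counts the averaged chow column as a library, so its calls are no support.

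Another gamma chain, Lamc3, went the opposite way. Lamc3, a chain known from nerve and retina, had 1.14, 1.39 and 1.82 CPM in high-fat islets, against 6.11 and 3.43 CPM in chow islets (log2 -1.20 ± 0.24, limma adjusted p = 0.0145). Every high-fat library lay below both chow libraries, and the chow libraries themselves differed by more than the high-fat ones. Lamc3 missed the threshold in 4 of the 16 alternatives: when chow replicate 1 was dropped (limma adjusted p = 0.063), when high-fat replicate 2 was (0.0516), with the acinar score held constant (0.0596) and with no filter (0.0715).

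Of the 3 beta chains, Lamb2 fell. It had 7.98, 10.3 and 11.3 CPM in high-fat islets, against 17.7 and 18.4 CPM in chow islets (log2 -0.82 ± 0.15, limma adjusted p = 0.0109). Lamb2 is the beta chain of vessel, kidney and synaptic laminins, and its call was lost in 1 of the 16 alternatives, the fit with no filter on low values (limma adjusted p = 0.0515). Lamb1, the other widespread beta chain, had 8.39, 9.87 and 11.5 CPM in high-fat islets, against 13.1 and 13.8 CPM in chow islets. These ranges did not overlap, but the difference did not pass (log2 -0.41 ± 0.14, limma adjusted p = 0.0751). Lamb3, a beta chain of epithelial laminin, stood at 4.81 CPM in chow replicate 1 and between 0.775 and 1.52 CPM in the other 4 libraries (limma adjusted p = 0.155).

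All 4 tested alpha chains had every high-fat library below both chow libraries, and 2 of them passed the threshold. Among all genes tested, the diets lay apart, in either direction, in 55.4%, and 8.78% were called lower. Lama5, the alpha chain of epithelial and mature vessel laminins, had 9.40, 11.2 and 8.57 CPM in high-fat islets, against 13.3 and 17.1 CPM in chow islets (log2 -0.59 ± 0.15, limma adjusted p = 0.0346). Lama4, the alpha chain of endothelial laminin, had 7.82, 9.31 and 8.25 CPM in high-fat islets, against 11.3 and 13.3 CPM in chow islets (log2 -0.49 ± 0.13, limma adjusted p = 0.034). Their shifts were alike in size and small beside that of Lamc1. Lama2, the muscle and nerve alpha chain, averaged 5.24 ± 1.53 CPM in high-fat islets and 8.23 ± 1.30 CPM in chow islets, and Lama3, the epithelial one, 5.24 ± 0.699 CPM in high-fat islets and 8.04 ± 1.75 CPM in chow islets (SD, n = 3 and 2, limma adjusted p = 0.0927 and 0.0663). Lama2 passed without high-fat replicate 3 (log2 -0.77, limma adjusted p = 0.0477). Lama1 was too low to test, with 0.258 to 0.298 CPM in high-fat islets and 0.123 and 0.394 CPM in chow islets. Lama5 and Lama4 were past the threshold in 11 and 9 of the 16 alternatives. With no filter neither passed (limma adjusted p = 0.106 and 0.0834). Lama5 lost its call without chow replicate 3 (limma adjusted p = 0.123) and without high-fat replicates 1 or 3 (0.0908 and 0.101). Lama4 lost it without any 1 library (0.0536 and 0.115 without chow replicates 1 and 3, and 0.0942, 0.0603 and 0.0972 without high-fat replicates 1, 2 and 3).

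**Figure D2:**
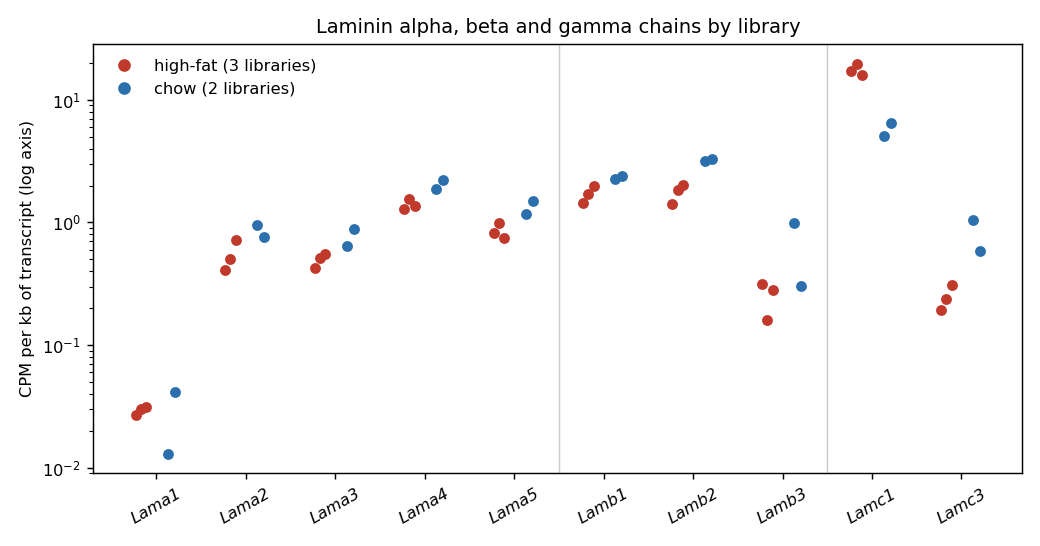
Level of 10 laminin chains in CPM per kb of transcript (log axis), 1 point per library, high-fat left and chow right within each gene, with lines between the alpha, beta and gamma chains. Lamc1 lies at 15.9 to 19.8 CPM per kb in high-fat libraries and 5.10 and 6.44 in chow libraries, and most other chains lie lower in the high-fat libraries.

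Levels of different chains were compared per length, as CPM per kb of the longest coding transcript in GENCODE M21. On that scale Lamc1 was the highest laminin chain, at 17.6 ± 1.97 CPM per kb in high-fat islets and 5.77 ± 0.948 CPM per kb in chow islets (SD, n = 3 and 2). Lamb2 and Lamb1 were lower, at 1.76 ± 0.305 and 1.71 ± 0.266 CPM per kb in high-fat islets and at 3.21 ± 0.0893 and 2.32 ± 0.0817 CPM per kb in chow islets. These beta chains did not differ beyond their spread in high-fat islets.

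The balance between chains was read as a ratio within each library, which no scaling of the libraries can move. Lamc1 stood to the sum of Lamb1 and Lamb2, the beta chains it pairs with, as 5.99, 5.58 and 3.98 in the high-fat libraries and as 0.943 and 1.14 in the chow libraries, all per kb. In chow islets the gamma chain was therefore about level with its beta chains, and in high-fat islets it stood several times above them. The alpha chains kept similar proportions, with Lama4 at 42.1% ± 1.92 of their summed level per kb in high-fat islets and 40.6% ± 0.398 in chow islets (SD, n = 3 and 2), and Lama5 at 25.7% ± 3.24 in high-fat islets and 26.5% ± 1.97 in chow islets. Lamb2 stood to Lamb1 as 0.977, 1.08 and 1.01 in high-fat libraries, and as 1.39 and 1.38 in chow libraries, without overlap.

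**Figure D3:**
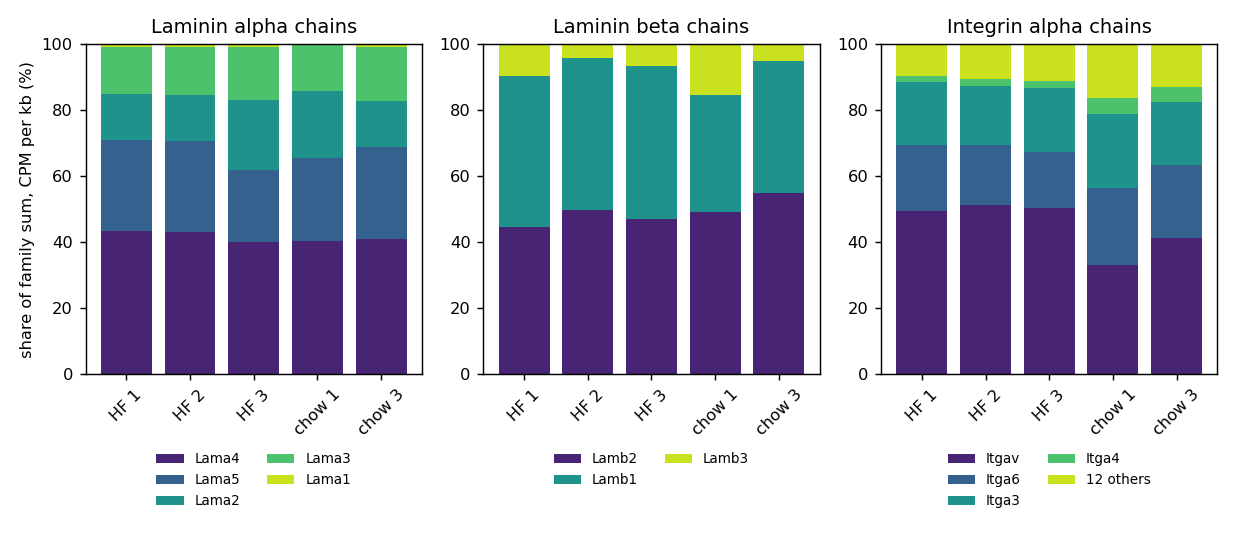
Share of each chain in the summed CPM per kb of its family (vertical axis, percent), 1 bar per library, with high-fat (HF) replicates 1 to 3 left and chow replicates 1 and 3 right, for laminin alpha, laminin beta and integrin alpha chains. Itgav takes 49.4% to 51.2% of the integrin alpha chains in high-fat libraries and 33.1% and 41.3% in chow libraries, while the laminin alpha chains divide alike in both diets.

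Among the linkers and proteoglycans of the basement membrane, Agrn fell. Agrin, which binds laminin and dystroglycan, had 13.9, 17.7 and 17.2 CPM in high-fat islets, against 23.1 and 23.9 CPM in chow islets (log2 -0.51 ± 0.12, limma adjusted p = 0.0256). Agrn was past the threshold in 10 of the 16 alternatives, and did not pass with no filter (limma adjusted p = 0.0825). The diets did not overlap, but the call was lost without any 1 library (limma adjusted p = 0.0762 and 0.0662 without chow replicates 1 and 3, and 0.0549, 0.051 and 0.0584 without high-fat replicates 1, 2 and 3). Hspg2, the perlecan core protein, had 21.3, 30.3 and 34.2 CPM in high-fat islets, against 26.7 and 94.1 CPM in chow islets. Here the 2 chow libraries disagreed: chow replicate 1 lay within the high-fat range and chow replicate 3 far above it (log2 -0.82 ± 0.47, limma adjusted p = 0.242). Without chow replicate 3 the log2 fold change was 0.068 (limma adjusted p = 0.859), and without chow replicate 1 it was -1.71 (limma adjusted p = 0.00991). It also passed with library sizes that omit 6 RNAs (limma adjusted p = 0.00635). In that fit 13 of 20 acinar markers were lower, against 1 with the deposited CPM. Fewer of all genes were called there, 15.4% against 23.7%. Calls of genes that vary widely between libraries of a diet are therefore uncertain in that fit. Nid1 averaged 24.9 ± 4.34 CPM in high-fat islets and 34.0 ± 3.49 CPM in chow islets, and Nid2 9.62 ± 0.595 CPM in high-fat islets and 8.75 ± 3.36 CPM in chow islets (SD, n = 3 and 2). Neither of these laminin-to-collagen linkers passed (limma adjusted p = 0.0673 and 0.587). Nid1 passed without high-fat replicate 3 (log2 -0.58, limma adjusted p = 0.0337). Nid2 was lower without chow replicate 1 (log2 -0.19, limma adjusted p = 0.401) and higher, past the threshold, without chow replicate 3 (log2 0.53, limma adjusted p = 0.0444).

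Among markers of the cells that make basement membrane, more were lower than higher. For comparison, 23.7% of all genes tested were called, 14.9% higher and 8.78% lower. Of 12 fibroblast and pericyte markers, all detected in these libraries, 7 were lower and 0 higher, and their summed level was 164 to 205 CPM in high-fat islets and 379 and 291 CPM in chow islets. Rgs5 and Cspg4 were not among the 7. Rgs5, the largest part of the sum, had 114, 131 and 118 CPM in high-fat islets, against 130 and 146 CPM in chow islets (limma adjusted p = 0.208). Cspg4 averaged 6.76 CPM in high-fat islets and 5.50 CPM in chow islets (limma adjusted p = 0.43). Of 12 endothelial markers, all detected, 3 were lower and 0 higher (limma, with 5 at an unadjusted p below 0.05), with sums of 378 to 465 CPM in high-fat islets and 479 and 563 CPM in chow islets. Of 7 Schwann and glial markers, 4 were lower and 1 higher, with sums of 15.2 to 21.1 CPM in high-fat islets and 20.5 and 23.1 CPM in chow islets. The fibroblast and pericyte count was 2 without chow replicate 1, 3 without high-fat replicate 2, 5 without high-fat replicates 1 or 3 and 9 without chow replicate 3. Of 8 ductal markers, 3 were lower and 1 higher, with sums of 176 to 207 CPM in high-fat islets and 299 and 234 CPM in chow islets. In bulk islets fewer cells of a type and less RNA per cell cannot be told apart, and the part of these cells in the laminin and integrin differences was not tested. Lamc1 and Itgav ran against these sums. They ran with the summed level of 11 endocrine markers, which was 104922 to 113333 CPM in high-fat islets and 74371 and 93260.5 CPM in chow islets. Of these 11 markers, 2 were higher and 0 lower (18.2% called, against 23.7% of all genes tested). The part of endocrine cells in the 2 rises was not tested.

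Of the integrin alpha chains, 13 of 16 were tested, and 1 rose and 2 fell. That is 23.1% called, near the 23.7% of all genes tested. Itgav had 154, 176 and 161 CPM in high-fat islets, against 82.6 and 113 CPM in chow islets. On the deposited CPM, not evened for the column sums, all 3 high-fat libraries lay above both chow libraries (log2 0.76 ± 0.14, limma adjusted p = 0.012). Itgav pairs with Itgb1, Itgb3, Itgb5, Itgb6 or Itgb8 and binds vitronectin, fibronectin and latent TGF-beta. Its call depended on the scaling and the filter: it was lost with library sizes that omit acinar and insulin genes (log2 0.37, limma adjusted p = 0.163, where the median of all genes moved to -0.28), with library sizes that omit 6 small or unannotated RNAs (0.0824) and with no filter (0.0614).

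Itga4 pairs with Itgb1 or Itgb7 and binds Vcam1 and fibronectin. It had 8.23, 10.2 and 9.92 CPM in high-fat islets, against 17.7 and 17.5 CPM in chow islets (log2 -0.83 ± 0.12, limma adjusted p = 0.00494). The chow libraries were nearly equal and the high-fat libraries clearly below them, and the call held in each of the 16 alternatives. Itga4 is best known from leukocytes, and the summed level of 10 leukocyte markers was 117 to 157 CPM in high-fat islets and no higher than 129.97 CPM in chow islets, so the diets overlapped there. Most of that sum was Cd74, at 78.2, 95.9 and 109 CPM in high-fat islets and 79.0 and 76.4 CPM in chow islets. Of the 9 leukocyte markers tested, 1 was higher and 0 were lower. The higher one was Cd3e, a T cell receptor subunit, with 3.87, 4.203 and 3.09 CPM in high-fat islets, against 0.214 and 0.122 CPM in chow islets (log2 2.01 ± 0.17, limma adjusted p = 0.000476). The part of leukocytes in the Itga4 difference was not tested.

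Itga1, the collagen and laminin receptor of vessel and stromal cells, had 6.83, 6.96 and 6.90 CPM in high-fat islets, against 11.2 and 9.36 CPM in chow islets (log2 -0.51 ± 0.12, limma adjusted p = 0.0274). The high-fat libraries were tightly grouped below both chow libraries. Itga1 was past the threshold in 9 of the 16 alternatives, and did not pass with no filter (limma adjusted p = 0.0629). The call was lost without chow replicate 1 (limma adjusted p = 0.129), without high-fat replicates 1, 2 or 3 (0.0745, 0.0787 and 0.0791) and in a fit that held the acinar score constant (0.109). The other collagen receptors were low, with means of 2.03 ± 0.109 CPM in high-fat islets and 2.74 ± 0.419 CPM in chow islets for Itga2, and of 1.60 ± 0.0964 CPM in high-fat islets and 1.62 ± 0.396 CPM in chow islets for Itga10 (SD, n = 3 and 2). Itga11, known from fibroblasts, was too low to test, at 0.0860 to 0.608 CPM in high-fat islets and 0.596 and 0.287 CPM in chow islets.

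**Figure D4:**
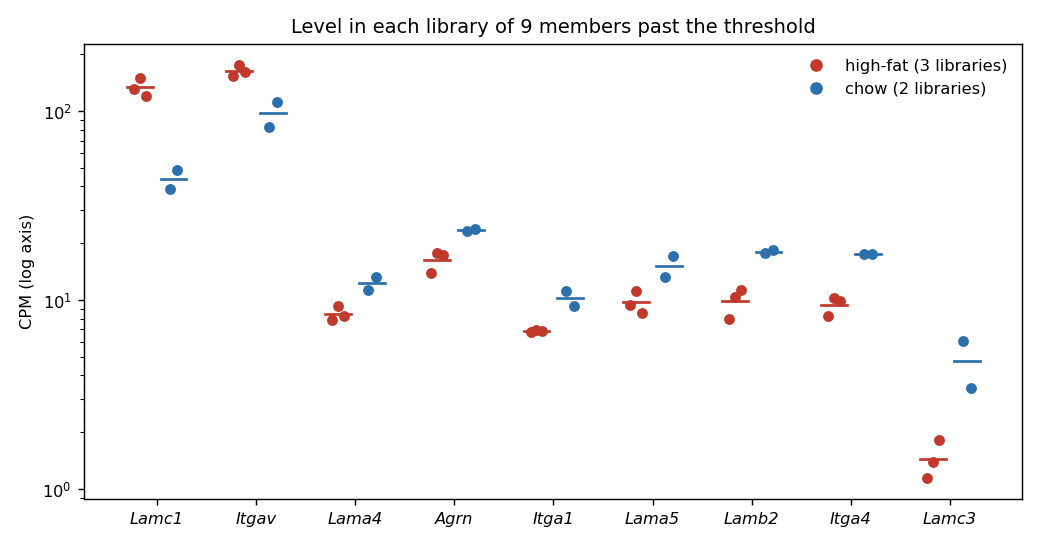
CPM (log axis) of 9 members past the threshold in each library, with points for libraries and lines for group means, high-fat left and chow right within each gene. Lamc1 and Itgav lie higher in all 3 high-fat libraries and the other 7 genes lie lower in all 3, and the levels run from 1.14 CPM for Lamc3 to 176 CPM for Itgav.

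The laminin-binding integrin alpha chains were abundant, and none of the 3 passed the threshold. Itga3 had 41.1, 42.5 and 42.9 CPM in high-fat islets, against 38.2 and 35.4 CPM in chow islets (log2 0.19 ± 0.08, limma adjusted p = 0.121). The diets did not overlap, but the step was small. It was below 0 with library sizes that omit acinar and insulin genes (log2 -0.19). Itga6, which with Itgb1 or Itgb4 forms the main laminin receptors of epithelia, had 38.0, 38.0 and 33.0 CPM in high-fat islets, against 35.6 and 37.0 CPM in chow islets, and the ranges overlapped (limma adjusted p = 0.993). Itga7, the muscle laminin receptor, averaged 2.64 ± 0.323 CPM in high-fat islets and 3.29 ± 0.391 CPM in chow islets (limma adjusted p = 0.311). At an unadjusted p below 0.05, 1 of these 3 genes passed, Itga3.

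The remaining alpha chains were low and did not pass. Among the RGD-binding chains, Itga5, the fibronectin receptor, averaged 3.47 ± 0.462 CPM in high-fat islets and 4.49 ± 0.227 CPM in chow islets, Itga8, known from smooth muscle and kidney, 1.56 ± 0.382 CPM in high-fat islets and 2.57 ± 1.03 CPM in chow islets, and Itga2b, the platelet chain, 1.04 ± 0.118 CPM in high-fat islets and 0.627 ± 0.263 CPM in chow islets (SD, n = 3 and 2). Their limma adjusted p were 0.186, 0.183 and 0.188. Itga9, a tenascin receptor chain, averaged 6.72 ± 0.806 CPM in high-fat islets and 5.74 ± 0.159 CPM in chow islets (limma adjusted p = 0.359). The leukocyte chain Itgal had 0.422, 1.88 and 2.14 CPM in high-fat islets, against 1.44 and 1.25 CPM in chow islets, with high-fat replicate 1 lowest of all (limma adjusted p = 0.997). Itgad and Itgae, also of leukocytes, were too low to test, with Itgad at 0.443, 0.712 and 0.924 CPM in high-fat islets and 0.0840 and 0.251 CPM in chow islets, and Itgae between 0.162 and 0.573 CPM in all 5 libraries.

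Per kb, Itgav was the highest integrin alpha chain, at 23.2 ± 1.63 CPM per kb in high-fat islets and 13.8 ± 3.00 CPM per kb in chow islets (SD, n = 3 and 2). Itga6 and Itga3 came next, at 8.43 ± 0.66 and 8.67 ± 0.202 CPM per kb in high-fat islets and 8.42 ± 0.232 and 7.57 ± 0.397 CPM per kb in chow islets, and in high-fat islets these neighbours did not differ beyond their spread. Itgav took 49.4%, 51.2% and 50.3% of the summed alpha chain level per kb in high-fat libraries, against 33.1% and 41.3% in chow libraries. Within each library, Itgav stood to Itgb1 as 0.496, 0.549 and 0.502 in high-fat islets and as 0.271 and 0.355 in chow islets. Itga4 stood to Itgb1 as 0.0191, 0.023 and 0.0224 in high-fat islets and as 0.0418 and 0.0399 in chow islets. Both ratios separated the diets in opposite directions, with no scaling involved.

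None of the 6 tested integrin beta chains passed the threshold (limma, with 1 of the 6, Itgb8, at an unadjusted p below 0.05). Itgb1, the partner of most alpha chains, had 168, 174 and 173 CPM in high-fat islets, against 165 and 171 CPM in chow islets. The ranges overlapped (log2 0.03 ± 0.08, limma adjusted p = 0.817). The value lay below 0 with median-ratio scaling and trimmed mean of M values scaling (log2 -0.048 and -0.050). It also lay below 0 with library sizes that omit 6 RNAs or the acinar and insulin genes (log2 -0.10 and -0.36). Those library sizes also evened out the unequal column sums, and the part of each step was not tested. Itgb5, a partner of Itgav, averaged 41.4 ± 0.936 CPM in high-fat islets and 37.1 ± 1.51 CPM in chow islets, and Itgb8, another partner, 27.0 ± 1.66 CPM in high-fat islets and 31.6 ± 0.747 CPM in chow islets (SD, n = 3 and 2, limma adjusted p = 0.185 and 0.112). Itgb3 and Itgb6, further partners of Itgav, were low. Itgb3 averaged 3.08 ± 0.157 CPM in high-fat islets and 3.45 ± 0.291 CPM in chow islets (limma adjusted p = 0.545). Itgb6 averaged 0.847 ± 0.0741 CPM in high-fat islets and 1.37 ± 0.392 CPM in chow islets (limma adjusted p = 0.169). So none of the 5 beta partners of Itgav rose past the threshold with it.

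Itgb4, the beta chain of hemidesmosomes, varied widely between libraries of the same diet. It had 6.08, 2.28 and 4.76 CPM in high-fat islets, against 15.2 and 4.29 CPM in chow islets (log2 -0.86 ± 0.50, limma adjusted p = 0.248). Chow replicate 1, the highest library for Itgb4 and for its ligand chain Lamb3, also had the highest acinar sum, 173537 CPM, and high-fat replicate 2, the lowest for both, had the lowest, 11463 CPM. These 2 libraries also had the highest and the lowest ductal sum, 299 and 176 CPM. In the fit that held the acinar score constant, the log2 fold change was -0.077 for Itgb4 (limma adjusted p = 0.898) and -0.32 for Lamb3 (limma adjusted p = 0.555). The part of acinar or ductal cells in these differences was not tested. Itgb4 passed the threshold without chow replicate 3 (log2 -1.66, limma adjusted p = 0.0322) and with library sizes that omit 6 RNAs (0.00488). Lamb3 likewise passed without chow replicate 3 (log2 -1.40, limma adjusted p = 0.014), with library sizes that omit 6 RNAs (0.0077) and with those that omit acinar and insulin genes (0.0313). For both genes the call without the 6 RNAs is uncertain, as for Hspg2 above. Itgb7, a leukocyte chain, was between 0.211 and 0.638 CPM and was not tested.

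The laminin receptors outside the integrin family did not pass (limma, with 1 of 2, Dag1, at an unadjusted p below 0.05). Dag1, which codes for both subunits of dystroglycan, had 122, 117 and 118 CPM in high-fat islets, against 90.5 and 105 CPM in chow islets (log2 0.28 ± 0.09, limma adjusted p = 0.0665). All high-fat libraries lay above both chow libraries, the difference passed without chow replicate 3 (log2 0.39, limma adjusted p = 0.0199), and its sign turned with library sizes that omit acinar and insulin genes (log2 -0.10). Bcam, a receptor for Lama5, averaged 22.5 ± 0.722 CPM in high-fat islets and 25.4 ± 0.985 CPM in chow islets (SD, n = 3 and 2, limma adjusted p = 0.182).

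None of the 6 adhesion complex genes passed either (limma, with Tln1 and Vcl, 2 of the 6, at an unadjusted p below 0.05). Tln1, the talin that links integrin tails to actin, had 108, 104 and 113 CPM in high-fat islets, against 81.7 and 100.1 CPM in chow islets (log2 0.26 ± 0.11, limma adjusted p = 0.123). The high-fat libraries lay above both chow libraries by a small step, which passed without chow replicate 3 (log2 0.40, limma adjusted p = 0.0232) and turned to -0.13 with library sizes that omit acinar and insulin genes. Vcl, vinculin, which strengthens the talin link, averaged 21.6 ± 1.89 CPM in high-fat islets and 16.6 ± 1.14 CPM in chow islets (log2 0.36 ± 0.11, limma adjusted p = 0.0513). The kinase Ptk2 averaged 26.3 ± 2.04 CPM in high-fat islets and 24.8 ± 0.353 CPM in chow islets, the adaptor Pxn 18.6 ± 1.08 CPM in high-fat islets and 19.7 ± 0.901 CPM in chow islets and the scaffold Ilk 27.7 ± 1.07 CPM in high-fat islets and 24.2 ± 2.69 CPM in chow islets (SD, n = 3 and 2, limma adjusted p = 0.545, 0.558 and 0.197). Tln2, the second talin, had 23.2 to 23.8 CPM in the high-fat libraries, close to 22.3 CPM in chow replicate 1, against 34.5 CPM in chow replicate 3 (limma adjusted p = 0.36). It passed without chow replicate 1 (log2 -0.53, limma adjusted p = 0.0181) and with library sizes that omit acinar and insulin genes (0.046), and without chow replicate 3 its sign turned (log2 0.078, limma adjusted p = 0.574).

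Some members share sequence with other genes in GENCODE M21, and whether reads were counted by strand is not given in the sources used here. Genes on the opposite strand overlapped 89.7% of the exon bases of Ilk (Taf10 and Rrp8), 25.5% of those of Vcl (Ap3m1), 8.04% of those of Itga4 (Cerkl), 6.27% of those of Lamc3 (Gm13441) and 5.9% of those of Itgav (Gm13684). On the same strand Gm42957 overlapped 33.5% of Itga10 and Gm49395 3.68% of Itga1. The values of Ilk, Vcl and Itga10 are therefore uncertain. Transcripts of other genes held 28.8% of the words of 31 bases of Itgad, with Itgax sharing the most, so its values are uncertain too. For Itga4 that share was 12.8%, with Cerkl sharing the most. The exons of Lamc1 overlapped no other gene, and 0.198% of its words of 31 bases occurred in transcripts of other genes.

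RefSeq promoter sequences (GRCm38.p6, 250 bases before to 50 after the start) were at hand for 29 of the 46 genes, 6 of them past the threshold. They are shown for Itgav, which rose, and for Itga4 and Lamb2, the fallen members whose calls held in the most alternatives, so that the start regions of genes that moved apart can be set side by side. Itgav lies at chr2:83724147-83724446 on the plus strand, Itga4 at chr2:79255176-79255475 on the plus strand and Lamb2 at chr9:108479612-108479911 on the plus strand. Capitals mark GC boxes (GGGCGG, on either strand).
Itgav: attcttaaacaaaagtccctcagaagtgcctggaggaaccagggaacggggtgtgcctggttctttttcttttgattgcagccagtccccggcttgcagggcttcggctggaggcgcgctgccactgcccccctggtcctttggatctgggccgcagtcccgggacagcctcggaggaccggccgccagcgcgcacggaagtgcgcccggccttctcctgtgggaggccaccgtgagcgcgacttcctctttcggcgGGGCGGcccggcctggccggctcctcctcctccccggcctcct
Itga4: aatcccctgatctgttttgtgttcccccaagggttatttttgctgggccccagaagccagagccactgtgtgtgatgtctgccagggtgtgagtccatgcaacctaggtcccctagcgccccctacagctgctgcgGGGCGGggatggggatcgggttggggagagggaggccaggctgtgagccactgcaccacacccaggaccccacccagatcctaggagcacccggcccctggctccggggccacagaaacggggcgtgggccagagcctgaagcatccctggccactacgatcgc
Lamb2: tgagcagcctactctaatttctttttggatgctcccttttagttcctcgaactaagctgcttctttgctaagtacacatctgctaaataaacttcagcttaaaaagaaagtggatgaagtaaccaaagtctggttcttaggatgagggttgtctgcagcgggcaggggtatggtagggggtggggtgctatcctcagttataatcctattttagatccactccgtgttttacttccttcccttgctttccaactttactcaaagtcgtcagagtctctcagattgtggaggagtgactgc
The promoters of Itgav and Itga4 each held 1 GC box, and that of Lamb2 held none. Over the 32851 promoters in the table, 35.7% held GGGCGG and 37.4% held CCAAT, another common promoter motif, on either strand. Of the 35 promoters of the members, 20 held GGGCGG, 7 held CCAAT and 0 held TATAAA, which 13.6% of all promoters held. The match is a description of letters, and the rise of Itgav and the fall of Itga4 went with the same count of GC boxes.

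Other genes of the pathway were followed in 5 lists, whose counts changed when 1 library was left out. Of 23 further basement membrane genes, 1 rose and 6 fell (30.4% called, against 23.7% of all genes tested), with a median log2 fold change of -0.35. Ntn4, a netrin that binds laminin gamma chains, had 6.90, 8.12 and 6.68 CPM in high-fat islets, against 13.1 and 12.3 CPM in chow islets (limma adjusted p = 0.00867). Fbln1, a fibulin, averaged 0.915 CPM in high-fat islets and 5.16 CPM in chow islets, and the calcium-binding Smoc2 0.905 CPM in high-fat islets and 3.69 CPM in chow islets (limma adjusted p = 0.0163 and 0.0166). Frem2, a member of the Fraser complex of epithelial basement membranes, rose, with 5.29 CPM in high-fat islets and 2.47 CPM in chow islets (limma adjusted p = 0.0147). Without chow replicate 1, high-fat replicate 1 or high-fat replicate 2, 2 genes of the list fell, and without high-fat replicate 3 it was 4. The part of fibroblasts in these falls was not tested.

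Of 33 integrin adaptors and regulators, 3 rose and 4 fell (21.2% called), with a median of -0.08. Src, the kinase that acts with Ptk2, averaged 28.3 CPM in high-fat islets and 20.8 CPM in chow islets, and Rapgef1, an exchange factor for the integrin-activating GTPase Rap1, 69.5 CPM in high-fat islets and 46.6 CPM in chow islets (limma adjusted p = 0.0136 and 0.0204). Rap1a, a gene for that GTPase, averaged 18.7 CPM in high-fat islets and 29.4 CPM in chow islets, and Lims1, which binds Ilk, 24.4 CPM in high-fat islets and 34.3 CPM in chow islets (limma adjusted p = 0.0155 and 0.0184). Rap1b, the other Rap1 gene and the more abundant one, averaged 112 CPM in high-fat islets and 115 CPM in chow islets (limma adjusted p = 0.777). With library sizes that omit acinar and insulin genes, 0 of the 33 rose and 15 fell. Leaving out 1 library gave 0 to 5 that rose (0 without high-fat replicate 2) and 0 to 6 that fell (0 without high-fat replicate 1).

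Of 16 tested membrane partners and hemidesmosome genes, 4 rose and 5 fell (56.3% called), with a median of -0.07. Sdc4, a syndecan that works with integrins in focal adhesions, averaged 90.2 CPM in high-fat islets and 54.7 CPM in chow islets, Sdc3 63.8 CPM in high-fat islets and 49.7 CPM in chow islets, and Cd47, which associates with Itgav and Itgb3, 129 CPM in high-fat islets and 98.5 CPM in chow islets (limma adjusted p = 0.0205, 0.0324 and 0.02). Cd9, a tetraspanin of integrin complexes, averaged 12.7 CPM in high-fat islets and 23.4 CPM in chow islets (limma adjusted p = 0.00925). With library sizes that omit acinar and insulin genes, 0 rose and 8 fell. Without high-fat replicates 1 or 2, 0 rose and 1 fell, without high-fat replicate 3 or chow replicate 1, 1 rose and 2 fell, and without chow replicate 3, 5 rose and 5 fell.

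Of 20 genes of the dystrophin complex and of dystroglycan glycosylation, 6 rose and 0 fell (30% called), with a median of 0.24. The count that rose was 2 without chow replicate 1, high-fat replicate 1 or high-fat replicate 2, 3 without high-fat replicate 3, and 6 without chow replicate 3. Sgcd, a sarcoglycan, averaged 9.30 CPM in high-fat islets and 1.47 CPM in chow islets (limma adjusted p = 0.00274). The dystrobrevin Dtnb averaged 32.5 CPM in high-fat islets and 25.1 CPM in chow islets (limma adjusted p = 0.0277). With library sizes that omit acinar and insulin genes, 2 rose and 4 fell. Holding the acinar score constant left 2 of these genes higher and 0 lower. In that fit 1 of the basement membrane genes was higher and 2 were lower, 0 adaptors were higher or lower with limma, and 0 membrane partners were higher and 1 was lower. Of 9 tested other integrin ligands, 0 passed with limma (3 at an unadjusted p below 0.05), with a median of -0.34.

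**Figure D5:**
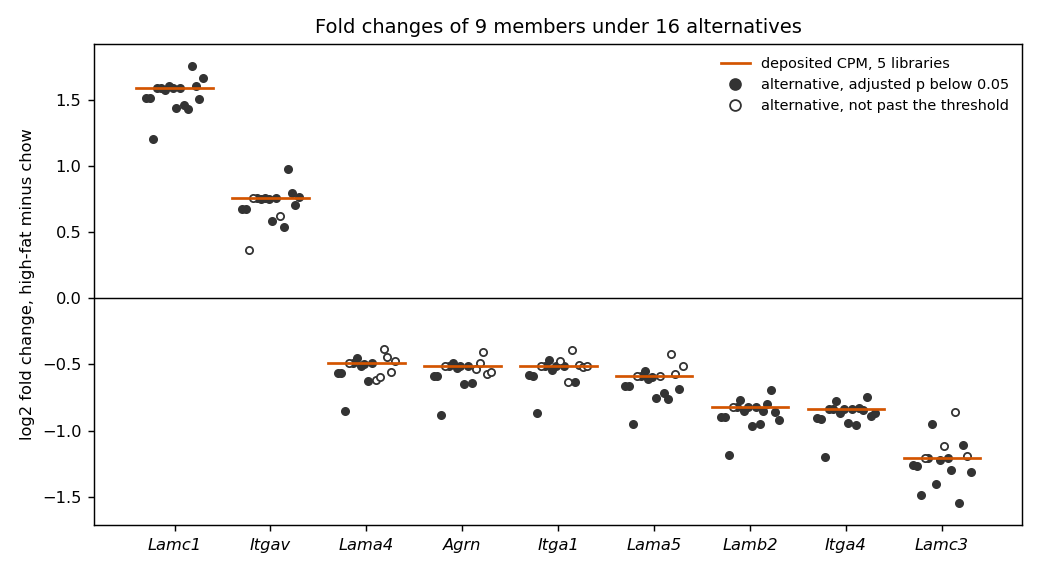
Log2 fold change (vertical axis, high-fat minus chow) of 9 members past the threshold under 16 alternative fits, 1 point per fit, filled where past the threshold, with a line at the value from the deposited CPM of 5 libraries. Lamc1 (1.21 to 1.76) and Itga4 (-1.20 to -0.75) are filled in all 16, and no gene crosses 0.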

How the data were processed

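Trizol was used to extract islet RNA, per the labels' protocols, and Partek is the tool that the submitters' processing notes name. Aligner, build, counting mode, library kit and Partek's version were not stated in the sources used here. Deposited values are taken to be the authors' CPM with 1 added: every column had a lowest value of 1, and in 5 of 6 columns a smallest step above it was taken as 1 read, which gives the implied depths. Only 64.6% to 70.0% of values up to 20 reads were whole within 0.1, so whole reads were not recovered.

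After subtracting 1, log2(CPM + 1) was tested with limma 3.58.1 in R 4.3.3 using a trended variance prior, on 16939 genes. Samples were numbered in deposit order, which pairs nothing. Fold changes on this scale understate those of low genes. A simulation of this comparison on 16714 genes recovered 73% of 100 genes shifted by log2 1 and 97% of 100 shifted by log2 2, and 8 of its 178 calls were false. It drew the noise of each gene separately and shifted only genes with a mean log2(CPM + 1) above 2. It held no difference shared by many genes of a library, such as the acinar one. Its rates therefore do not cover such differences or lower genes.

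The members, lists and alternatives were chosen with earlier results of these data known. Values per library are given for called members averaging 1 CPM or more and for the highest member of each role, and for others where libraries differed. Up to 4 genes of a list with the smallest p are named. Some genes counted here are not reported by name. The leukocyte markers Cd74 and Cd3e, and Rgs5, Cspg4 and Rap1b, were chosen after their values were seen. So were the members named at an unadjusted p. The older symbols of 3 list genes were used. Alternatives were 4 library scalings, 2 filters, 2 pseudocounts, all 6 columns, the acinar score, no trend and leaving out each of the 5 libraries.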

Additional observations from a re-analysis of the deposited data

How the results depend on the processing

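No paired analysis was possible because the labels give no replicate numbers. With the deposited CPM, 2524 of all genes and 2 members were higher and 1487 and 8 were lower in high-fat islets. With library sizes that omit acinar and insulin genes these became 794, 1, 4699 and 22, and the median of all genes was -0.28, against 0.05. With no filter they were 1080, 1, 573 and 1, and with all 6 columns 4224, 7, 2828 and 16. The fit with all 6 columns counts the averaged chow column as a library. That narrows the chow spread without adding information, so its calls are no support. The counts out of 16 alternatives include that fit. Holding the acinar score constant left 1133 higher and 724 lower genes. With library sizes that omit 6 small or unannotated RNAs, an alternative chosen after seeing the data, 1059 genes and 1 member were higher. Library sizes that omit genes are sums of the remaining genes, so these fits also even out the unequal column sums. Median-ratio scaling gave 12 lower members. Higher genes were 62.9% of the calls, and 50.6% with median-ratio scaling, 49.4% with a trimmed mean of M values, 40.5% without the 6 RNAs and 14.5% without acinar and insulin genes. Leaving out 1 library gave 1167 to 2969 higher and 682 to 1415 lower genes, and 2 to 5 higher and 3 to 6 lower members. The 10 called members kept their direction in all 16 alternatives, and 2 of them, Lamc1 and Itga4, kept their call in all. Signs turned, among the members named by rule, for Dag1 (-0.10), Itga3 (-0.19), Tln1 (-0.13) and Itgb1 (-0.36) without acinar and insulin genes in the library size, for Itgb1 with median-ratio scaling (-0.048), a trimmed mean of M values (-0.050) and without the 6 RNAs (-0.10), and for Hspg2 without chow replicate 3 (0.068, against -1.71 without chow replicate 1). Among other members, leaving acinar and insulin genes out also turned Ilk (-0.19), Itgb5 (-0.23), Ptk2 (-0.29), Itga9 (-0.15), Nid2 (-0.19) and Vcl (-0.016), omitting the 6 RNAs turned Ptk2 (-0.046), holding the acinar score constant turned Nid2 (-0.019), and leaving out 1 chow library turned Nid2 (-0.19) and Tln2 (0.078). Itga6, Itga10 and Itgal, at -0.00 with the deposited CPM, lay above 0 in some alternatives. With no filter 39352 genes were tested. The causes of these changes were not tested. With 2 chow libraries, 1 library can decide a call, and levels under 0.16 CPM rest on under 3 reads in the shallowest library.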
